A study of Mus musculus with 15 samples.

Results

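The cadherin and protocadherin genes of mouse brain cortex were taken from an RNA-seq table by their symbols, as every gene whose name starts with Pcdh or with Cdh and a digit. The rule gave 94 of the 23235 genes of the table: 35 non-clustered cadherins and protocadherins and 59 clustered protocadherins, of which 15 belong to the alpha, 22 to the beta and 22 to the gamma cluster. The study asked what is lost with 116HG, the long non-coding host gene of the Snord116 small nucleolar RNAs in the Prader-Willi locus. RNA came from the cortex of adult males that were either wild type (WT, C57BL/6J) or heterozygous for a Snord116 deletion inherited from the father (Snord116del +/-, B6(Cg)-Snord116tm1.1Uta/J, with WT littermates as controls), killed in the light phase at Zeitgeber time (Zt) +6 h or in the dark phase at Zt +16 h. The groups held 3 mice for WT at Zt +6 and 2 mice for each of Snord116del at Zt +6, WT at Zt +16 and Snord116del at Zt +16. The labels tie both Snord116del mice and 1 WT mouse at Zt +6 to another processed table than the other 6 mice, so whether each group value used here pools all mice of its group could not be checked, and at Zt +6 this division cannot be told apart from genotype. Chromatin isolation by RNA purification (ChIRP), which pulls an RNA and the DNA bound to it out of cross-linked chromatin with biotinylated oligos, was done on adult brain of the same strains with oligos against 116HG or with non-specific control (NSC) oligos.

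Cadherins are calcium-dependent adhesion molecules that join cells through their extracellular repeats. Classical cadherins bind catenins inside the cell and hold synapses and adherens junctions together, while the delta-protocadherins have cytoplasmic tails without a catenin site and guide axons and sort neurons. Clustered protocadherins are made from arrays of variable exons, each with its own promoter, of which a neuron uses a changing few, so that each cell carries its own surface label for telling self from other. The variable exons of the alpha and of the gamma cluster are spliced to constant exons shared by the whole cluster, whereas the beta genes have single coding exons of their own.

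Values are FPKM (fragments per kilobase of transcript and scaled to the mapped reads), which are per length. Differences between groups still moved with transcript length, as given below, so comparisons between genes of unlike length carry that limit. The table holds 1 value per group and gene, so no spread between mice can be given, no difference has a replicate check and no test was made. Unless said otherwise, 4 FPKM values stand in the order WT at Zt +6, Snord116del at Zt +6, WT at Zt +16 and Snord116del at Zt +16. A gene counts as past the fold rule where FPKM + 1 differed by at least 1.5-fold between groups, the higher group was at 1 FPKM or more and the mean of the 4 groups was at least 1 FPKM. That filter kept 10297 genes and 42 of the 94 members, 20 non-clustered and 22 clustered. Log2 differences are of FPKM + 1 and are smaller than those of FPKM itself for low genes. The deleted Snord116 was listed at 0 in all 4 groups, so its level does not check the genotype labels.

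Of the 94 members, 85 had their highest level in Snord116del at Zt +6, against 50.7% of all genes of the table. At Zt +6, 88 of the 94 members were higher in Snord116del than in WT and 6 were lower, where 64.6% of all genes were higher. Among the tested genes, 49.3% were past the fold rule upwards at Zt +6, as were 19 of 20 non-clustered and 19 of 22 clustered members, and no member was past it downwards. The median log2 difference was 1.17 for the non-clustered members, 0.84 for the clustered members and 0.57 for all tested genes. Of the 42 tested members, 11 reached 1 FPKM in Snord116del at Zt +6 alone and so could pass the filter only by being high there, which bars these counts from being read as support. Among genes at 1 FPKM or more in WT at Zt +6, a filter chosen after seeing the data, 47.5% of 9416 genes were past the fold rule upwards, as were 13 of 14 non-clustered and 13 of 14 clustered members.

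The whole table was shifted at Zt +6. After every group was scaled to the same median, the median log2 difference of all tested genes went from 0.57 to -0.06 and their split from 5073 higher and 785 lower to 1480 higher and 2524 lower. On that scale 8 of 19 non-clustered members were higher past the fold rule and 0 were lower, and of 19 clustered members 2 were higher and 0 lower. Set against the all-gene median of the deposited values, 19 of 20 non-clustered members lay above it, the exception being Cdh20, and 19 of 22 clustered members did so.

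In the dark phase most members lay under the all-gene median. At Zt +16, 19.0% of tested genes were past the fold rule upwards in Snord116del, while 1 of 20 non-clustered and 0 of 22 clustered members were. Their median log2 differences, 0.18 and 0.11, were below the 0.35 of all tested genes, and 16 of the 20 non-clustered and 20 of the 22 clustered members lay under that median. The genotype difference was larger at Zt +6 than at Zt +16 in all 20 non-clustered and all 22 clustered members, against 60.3% of tested genes. The 11 members that passed the filter only through Snord116del at Zt +6 are among them and favour this count, so it is a description and not support. The difference between the 2 times was not tested.

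**Figure D1:**
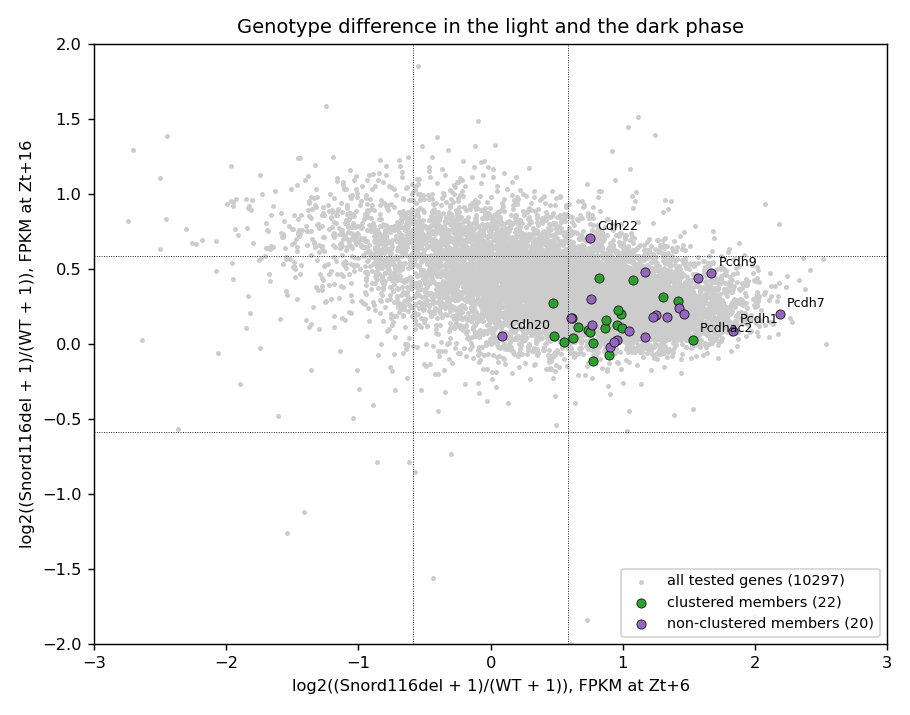
Log2 difference of FPKM + 1 between Snord116del and WT at Zt +6 (horizontal axis) and at Zt +16 (vertical axis) for 10297 tested genes in grey, 20 non-clustered members in purple and 22 clustered members in green; dotted lines mark 1.5-fold, and 36 genes lie outside the axes. The members lie to the right of zero with Pcdh7 furthest out at 2.19, and Cdh22 alone passes the upper dotted line at Zt +16.

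The type I classical cadherins bind strongly to their own kind. Cdh2 (N-cadherin), which holds neural junctions and synapses together, was at 7.22, 17.5, 4.54 and 6.74 FPKM. Cdh4 (R-cadherin, named for the retina) was at 0.962, 1.98, 0.848 and 1.08 FPKM. Snord116del at Zt +6 was the highest group for both genes, with log2 differences from WT of 1.17 and 0.60. At Zt +16 the differences were 0.48 and 0.17, under the fold rule. The epithelial members of this class were near zero: Cdh1 (E-cadherin) did not exceed 0.209 FPKM in any group and Cdh3 (P-cadherin) did not exceed 0.135. Cdh15 (M-cadherin, of muscle) was at 0.647, 0.167, 0.701 and 1.41 FPKM, lowest in Snord116del at Zt +6 and highest in Snord116del at Zt +16. Cdh1, Cdh3 and Cdh15 were all lower in Snord116del than in WT at Zt +6, but none of them passed the filter.

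The type II classical cadherins mark groups of neurons that connect with one another. Cdh11 was at 1.78, 6.47, 0.360 and 0.605 FPKM. Cdh10 was at 2.01, 6.58, 1.03 and 1.30 FPKM. Cdh8 was at 2.04, 5.82, 0.639 and 0.689 FPKM. Each of these 3 was higher in Snord116del than in WT at Zt +6, by 3.63-, 3.27- and 2.86-fold, and by at most 1.68-fold at Zt +16. Cdh18 was at 0.843, 3.31, 0.328 and 0.505 FPKM, a 3.93-fold difference at Zt +6.

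Cdh22 and Cdh20 departed from that pattern. Cdh22 was at 3.64, 6.80, 3.39 and 6.18 FPKM, so that both Snord116del groups lay above both WT groups, by 1.87-fold at Zt +6 and 1.82-fold at Zt +16. It was the single member past the fold rule at Zt +16, with a log2 difference of 0.71. Cdh20 was at 1.31, 1.45, 0.862 and 0.929 FPKM and was the single tested non-clustered member under the fold rule at Zt +6, with a log2 difference of 0.09.

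Cdh5 (VE-cadherin), the adhesion molecule of endothelial junctions, was at 0.824, 2.41, 0.852 and 0.825 FPKM, high in Snord116del at Zt +6 and alike in the other 3 groups. The summed FPKM of 5 endothelial markers (Pecam1, Cldn5, Flt1, Tek and Kdr) was 4.43, 13.9, 1.92 and 2.31, and all 5 were higher in Snord116del than in WT at Zt +6, 3 of them past the fold rule. Unlike Cdh5, the sum also differed between the WT groups, where it was lower at Zt +16. The part of endothelial content in the Cdh5 difference was not tested. In bulk tissue, fewer cells of a type and less RNA per cell cannot be told apart.

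Cdh13 (T-cadherin) lacks a cytoplasmic part and is held in the membrane by a lipid anchor. It was at 3.20, 8.99, 1.43 and 1.78 FPKM, a log2 difference of 1.25 at Zt +6 and of 0.19 at Zt +16. Pcdh15, which with Cdh23 forms the tip links of hair cells in the inner ear, was at 0.858, 2.61, 0.494 and 0.523 FPKM. Its partner Cdh23 stayed at or below 0.163 FPKM in every group.

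The delta-1 protocadherins had the largest differences of any subfamily. Pcdh7 was at 3.33, 18.7, 1.01 and 1.32 FPKM. Pcdh1 was at 6.90, 27.1, 2.27 and 2.48 FPKM. Pcdh9 was at 6.48, 22.8, 2.00 and 3.16 FPKM. In these 3 genes Snord116del at Zt +6 stood above the other groups by at least 3.51-fold, WT at Zt +6 came next and both groups at Zt +16 were lowest. Their log2 differences at Zt +6 were 2.19, 1.83 and 1.67, or 1.62, 1.26 and 1.10 above the all-gene median. The remaining delta-1 gene, Pcdh11x, was lower throughout, at 0.895, 2.92, 0.591 and 0.687 FPKM. The 4 delta-1 genes together made up 28.2% of the summed FPKM of the 35 non-clustered members in WT at Zt +6, 37.0% in Snord116del at Zt +6, 17.2% in WT at Zt +16 and 16.2% in Snord116del at Zt +16.

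Among the delta-2 protocadherins, Pcdh10 (OL-protocadherin), which guides axons of the forebrain, had the highest mean level of all 94 members, at 8.81, 28.0, 6.41 and 9.04 FPKM. Pcdh17 was at 1.79, 6.67, 0.670 and 0.921 FPKM. Pcdh19, whose loss causes an X-linked epilepsy, was at 1.26, 2.85, 0.580 and 0.721 FPKM. In all 3 genes Snord116del at Zt +6 was the highest group. Pcdh8 (arcadlin), which neuronal activity induces, had smaller contrasts, at 2.89, 5.59, 2.47 and 3.26 FPKM. Pcdh20, which is outside the delta classes here, was at 0.751, 2.34, 0.475 and 0.491 FPKM.

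**Figure D2:**
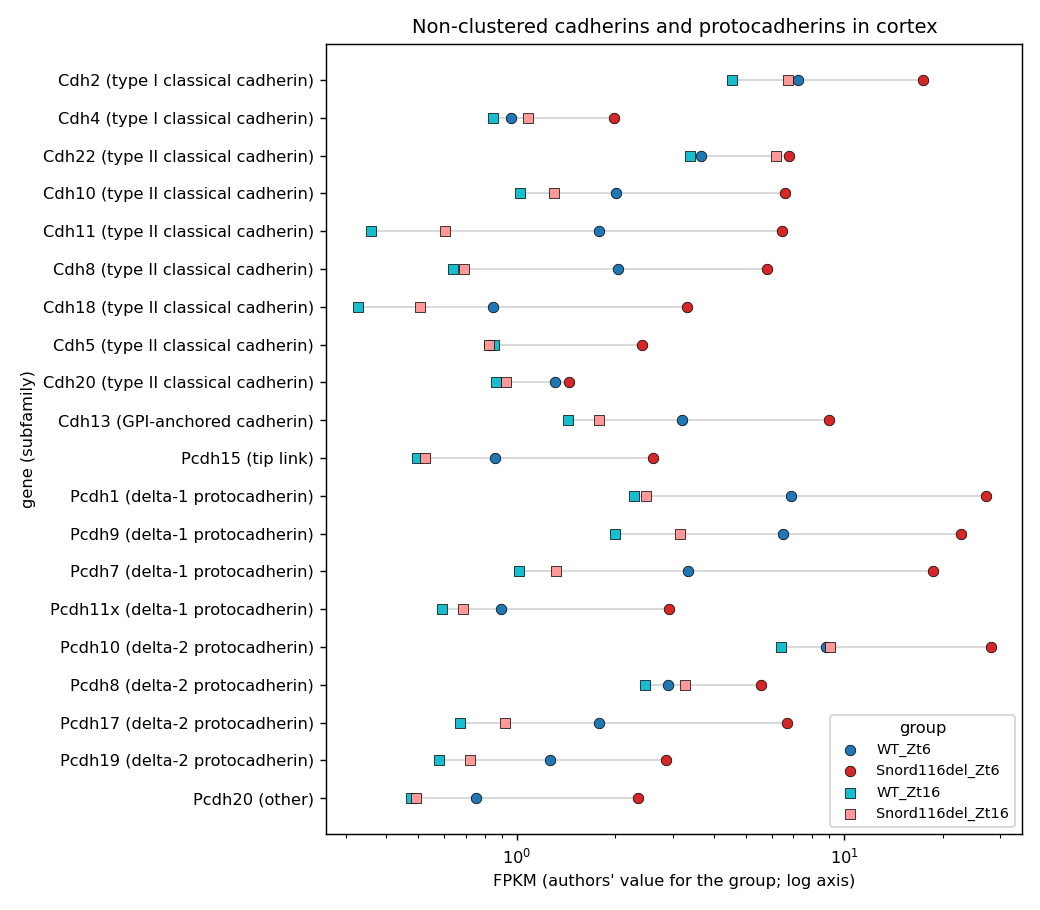
FPKM (log axis) of the 20 tested non-clustered members by subfamily, with circles for Zt +6 and squares for Zt +16; each point is the authors' value for a group, with no error available. The red circle, Snord116del at Zt +6, is the rightmost point in every row, from 1.45 FPKM for Cdh20 to 28.0 FPKM for Pcdh10.

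The other 15 non-clustered members did not pass the filter, and no fold is given for them. Their summed FPKM was 4.73, 12.5, 2.87 and 3.82 over the 4 groups. Cdh12 (2.78 FPKM), Cdh6 (2.14), Cdh7 (1.72), Cdh9 (1.58), Cdh19 (1.47) and Pcdh18 (1.06) reached 1 FPKM in Snord116del at Zt +6, and all 6 were under 1 FPKM in the other groups. Cdh24, a further type II gene, reached 0.828 FPKM. Cdh16 and Cdh17, which belong to kidney and intestine, stayed at or below 0.0766 FPKM, and Cdh26 and the endothelial Pcdh12 stayed at or below 0.215 FPKM. The nearest gene under the threshold was Cdh12, with a mean of 0.904 FPKM, and the nearest above it was Pcdh20, with a mean of 1.01 FPKM.

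Of the clustered protocadherins, the gamma cluster was the most abundant, with 66.3%, 66.6%, 66.9% and 67.6% of the summed clustered FPKM in the 4 groups. The alpha share lay between 12.1% and 14.4% and the beta share between 18.0% and 21.6%, while the sum over the 3 clusters was 57.4, 141, 42.1 and 51.9 FPKM. All 22 gamma genes were higher in Snord116del than in WT at Zt +6, where 64.6% of all genes were. Of the 13 gamma genes at 1 FPKM or more in WT at Zt +6, 12 were past the fold rule upwards, against 47.5% of all genes at that level. The C-type genes, which neurons express from both alleles rather than by chance, led the cluster. Pcdhgc5 was at 8.16, 23.5, 4.75 and 5.99 FPKM. Pcdhgc3 was at 4.40, 12.3, 1.81 and 2.49 FPKM. Pcdhgc4, which mice need to survive after birth, was much lower, at 0.717, 1.39, 0.668 and 0.831 FPKM. The C-type share of the summed gamma FPKM was 34.9% and 39.7% at Zt +6 and 25.7% and 26.6% at Zt +16, for WT and Snord116del in turn. Of the stochastic gamma genes, Pcdhga7 had the highest mean of the 4 groups, at 2.49, 5.14, 2.67 and 3.99 FPKM. Pcdhga11 was above it in both groups at Zt +6 and below it in both at Zt +16, at 2.85, 7.14, 1.37 and 2.19 FPKM.

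The alpha cluster has 2 C-type genes, of which Pcdhac2 led the cluster in every group and Pcdhac1 did not. Pcdhac2 was at 1.58, 6.45, 0.942 and 0.982 FPKM, the largest log2 difference of any clustered member at Zt +6 (1.53) and one of 0.03 at Zt +16. Its share of the summed alpha FPKM was 22.7%, 36.6%, 15.6% and 13.1%. Pcdhac1 was at 0.420, 0.677, 0.382 and 0.407 FPKM. The highest of the stochastic alpha genes were Pcdha12, at 0.571, 1.5, 0.402 and 0.617 FPKM, and Pcdha6, at 0.466, 1.03, 0.474 and 0.714 FPKM. Pcdhac2 alone of the 15 alpha genes passed the filter.

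In the beta cluster, 21 of 22 genes were higher in Snord116del than in WT at Zt +6, where 64.6% of all genes were. The median level of the 22 genes was 0.482, 1.28, 0.292 and 0.307 FPKM. Pcdhb20 was at 0.947, 2.57, 0.467 and 0.640 FPKM. Pcdhb17 was at 0.855, 2.38, 0.639 and 0.764 FPKM. Pcdhb9 was at 0.807, 2.09, 0.802 and 0.806 FPKM. Across the cluster 14 genes reached 1 FPKM in Snord116del at Zt +6 and none did so in another group. The 5 tested beta genes thus passed the filter through that group, and no count over them alone is given. Since alpha genes share 3 constant exons and gamma genes likewise, reads from those exons do not belong to any single gene of the cluster, and how Cuffdiff divided them sets the level of each alpha and gamma gene. The beta levels do not depend on shared exons.

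**Figure D3:**
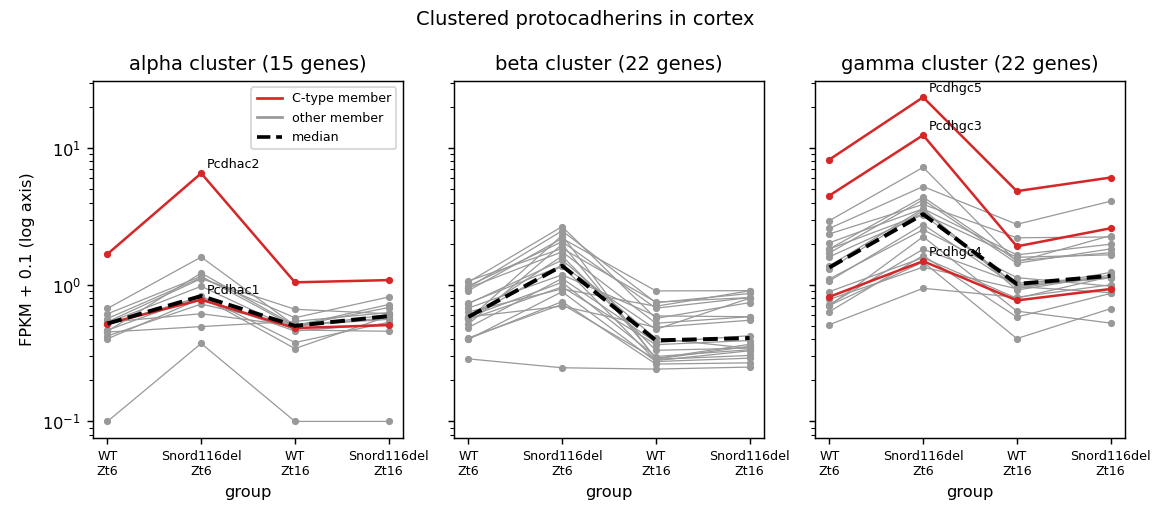
FPKM + 0.1 (log axis) of the clustered protocadherins in the 4 groups, with a line for each gene, C-type genes in red and the median of the cluster as a dashed line. In each cluster the median peaks in Snord116del at Zt +6, and Pcdhgc5, Pcdhgc3 and Pcdhac2 lie above the rest of their clusters there.

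Time of day was compared within each genotype. These comparisons share groups with those between genotypes, so that a high value in Snord116del at Zt +6 enters both. In Snord116del, the division of mice between processed tables follows time, so it cannot be told apart from time of day there. In WT, 10.3% of tested genes were past the fold rule towards lower levels at Zt +16, as were 7 of 20 non-clustered members and 3 of 22 clustered members, with none higher. The 7 were Pcdh9, Pcdh1, Pcdh7, Cdh11, Cdh8, Cdh13 and Pcdh17, with log2 differences from -1.32 for Pcdh9 to -0.74 for Pcdh17, and the 3 were Pcdhgc3 (-0.94), Pcdhga11 (-0.70) and Pcdhgc5 (-0.67). The medians were -0.50 for the non-clustered members, -0.19 for the clustered members and -0.04 for all tested genes. Both time comparisons moved with transcript length over 10165 tested genes, with Spearman's rho of -0.49 in WT and -0.62 in Snord116del. With the trend on transcript length removed, the non-clustered median was -0.22 in place of -0.50 in WT. In Snord116del it was -0.39 in place of -1.39. In Snord116del, 39.1% of tested genes were past the fold rule towards lower levels at Zt +16, as were 17 of 20 non-clustered and 19 of 22 clustered members, again with none higher. The 11 members that passed the filter only through Snord116del at Zt +6 were all among those lower. They favour these counts, which are a description and not support. Pcdh7 was 14.2-fold lower at Zt +16 than at Zt +6 in Snord116del and 3.28-fold lower in WT. Pcdh1 was 10.9-fold and 3.03-fold lower, and Cdh11 was 10.7-fold and 4.95-fold lower. Cdh22 differed little between times, by 1.10-fold in Snord116del and 1.07-fold in WT.

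The order of the members' levels was kept better within the dark phase than between phases. Over the 94 members, Spearman's rho was 0.97 between WT and Snord116del at Zt +16, 0.92 between the genotypes at Zt +6, 0.88 between the WT groups and 0.74 between the Snord116del groups. Over all tested genes the same 4 values were 0.98, 0.84, 0.93 and 0.65. They describe the same genes in libraries that share the annotation, and no p is given.

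Transcript length moved with the genotype difference at Zt +6. Across 10165 tested genes with a length in the annotation, Spearman's rho between length and log2 difference was 0.63, and the median log2 difference went from -0.40 in the shortest to 1.25 in the longest of 10 equal groups of genes by length. The tested non-clustered members are long, with a median transcript of 4719 bases against 3087 bases for all tested genes. After the trend on transcript length was removed, their median log2 difference was 0.21 in place of 1.17. On that scale 6 of 20 stayed higher by 1.5-fold or more: Pcdh7 (1.17), Pcdh9 (0.97), Pcdh1 (0.84), Cdh18 (0.75), Cdh10 (0.70) and Cdh11 (0.62). Of these 6, Cdh18 passed the filter only by being high in Snord116del at Zt +6. Cdh20 was lower past the fold rule, at -0.68. The sign turned for Cdh4 (-0.49), Pcdh11x (-0.19), Pcdh15 (-0.31), Pcdh19 (-0.55) and Pcdh20 (-0.04). The 26.1% of all genes past the fold rule on that scale were split into 1282 higher and 1367 lower.

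With the trend on gene length, introns included, removed in its place, an alternative chosen after seeing the data, other genes passed. The 5 higher by 1.5-fold or more were Pcdh1 (1.25), Pcdh7 (1.06), Pcdh20 (0.76), Pcdh10 (0.70) and Pcdh8 (0.70). Cdh20 was lower at -0.98, where 31.1% of all genes were past the fold rule in either direction. Of these 5, Pcdh20 passed the filter only by being high in Snord116del at Zt +6. Pcdh9 (0.46), Cdh11 (0.40), Cdh10 (0.28) and Cdh18 (0.01) were then under the fold rule, so that Pcdh7 and Pcdh1 alone were higher past it on both scales. Of the 22 tested clustered members, 6 had a length in the annotation under their own symbol, Pcdhgc5 and the 5 beta genes. Those 5 have a median transcript of 3438 bases and passed the filter only through Snord116del at Zt +6. With the trend on transcript length removed, the difference was 0.38 in place of 1.42 for Pcdhgc5, and the median of the 5 beta genes was 0.21 in place of 0.77. With the trend on gene length removed they were at 0.39 and 0.85. The other 16 tested clustered members were not corrected for length. At Zt +16 the trend between genotypes ran the other way, with a rho of -0.38. What makes the difference depend on length was not tested.

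**Figure D4:**
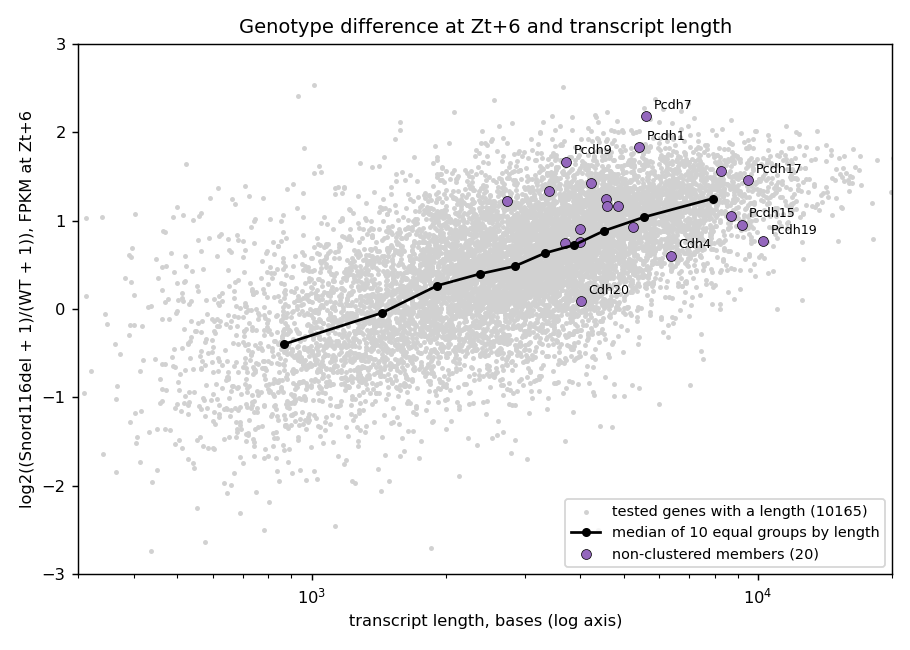
Log2 difference of FPKM + 1 between Snord116del and WT at Zt +6 against annotated transcript length (log axis), with 10165 tested genes in grey, 20 non-clustered members in purple and the medians of 10 equal groups of genes by length as a black line. 42 genes lie outside the axes. The black line climbs from -0.40 to 1.25, Pcdh7 lies well above it and Pcdh19 and Cdh4 lie below it.

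Most genes that work with cadherins were higher in Snord116del at Zt +6 as well. Of 41 listed partners, 34 were tested, and 29 were past the fold rule upwards and 0 downwards at Zt +6, where 49.3% of all tested genes were past it upwards. Their median log2 difference was 1.00 against 0.57 for all tested genes. At Zt +16, 2 were past it upwards and 0 downwards, with a median of 0.30 against 0.35 for all tested genes. Of the catenins and linkers, 8 of 10 were past the rule at Zt +6, led by Vcl (vinculin, which ties junctions to actin) at 1.34, Mllt4 (afadin) at 1.29 and Ctnnd1 (p120-catenin, which keeps classical cadherins at the surface) at 1.17. Of 3 nectins 2 were past it, Pvrl3 at 0.95 and Pvrl1 at 0.65, while Pvrl2 was at 1.78, 0.903, 1.54 and 2.65 FPKM, a log2 difference of -0.55 at Zt +6. All 5 proteases and kinases were past it, led by Ptk2 (focal adhesion kinase) at 1.24, Ptk2b (its relative, which clustered protocadherins inhibit) at 0.98 and Adam10 (the sheddase of N-cadherin) at 0.94.

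CTCF and cohesin loop the promoters of the clustered genes to distant enhancers. Of 9 tested regulators, 7 were past the fold rule upwards at Zt +6, against 49.3% of all tested genes, led by the cohesin genes Stag2 (1.82) and Stag1 (1.66) and the cohesin loader Nipbl (1.29). Stag2 was at 1.52, 7.88, 0.757 and 1.10 FPKM. In the wider superfamily 7 of 7 tested genes were past the rule, led by Clstn1 (calsyntenin) at 1.69, Fat3 (a giant cadherin) at 1.69 and Celsr3 (a seven-pass cadherin) at 1.18. Another of the 7 reached 1 FPKM in Snord116del at Zt +6 alone and so could pass the filter only by being high there. That favours this count and the count over all partners. Clstn1 was at 63.7, 208, 32.9 and 38.5 FPKM, the same order of groups as Pcdh7 and Pcdh1. With the trend on transcript length removed, 3 partners were higher and 2 lower past the fold rule at Zt +6.

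Markers of the cell types that cortex can hold were read beside these results. The cortical neuron markers were all present, among them Tbr1 at 10.9, 16.4, 11.3 and 15.4 FPKM. Over 10 lists with 46 genes, 44 were higher in Snord116del at Zt +6, where 64.6% of all genes were, and 20 of the 46 were past the fold rule upwards and 0 downwards, beside 49.3% of all tested genes upwards. The lists that were highest in that group were cortical neurons, astrocytes, thalamus and endothelium. Summed FPKM was 654, 902, 519 and 722 for cortical neurons and 30.01, 90.1, 13.5 and 17.3 for astrocytes. For thalamus it was 4.28, 13.7, 2.83 and 3.03. Choroid plexus markers, chiefly Ttr, divided the groups by time instead, with summed FPKM of 203 and 185 at Zt +6 against 25.8 and 30.9 at Zt +16. The part of cell content in the members' differences was not tested.

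ChIRP peaks were counted at 59 loci: the 35 non-clustered genes, the 22 beta genes and the alpha and gamma clusters as a locus each, because their genes overlap. WT 116HG replicate 1 had 387 peaks within 2 kb of these loci, replicate 2 had 34, WT NSC had 4, Snord116del 116HG had 2 and Snord116del NSC had 12. The whole lists hold 78033, 11145, 3648, 1280 and 3418 peaks, so the members have no count that can be read without list size. A peak of replicate 1 within 10 kb of a peak of replicate 2 was counted as replicated. Such a peak lay at 15 of the 59 loci (25.4%) and at 12 of the 35 non-clustered loci (34.3%), against 10.9% of 21853 annotated genes. Any peak of replicate 1 lay at 44 loci, against 59.4% of genes, and any peak of replicate 2 at 16 loci, against 13.9%.

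The non-clustered loci are long, with a median of 106 kb against 16.0 kb for all annotated genes. Per megabase of gene they held fewer peaks of replicate 1 than all genes did (31.2 against 64.5) and a like number of replicate 2 (3.16 against 3.61). Over the 35 loci, Spearman's rho between the number of replicate 2 peaks and gene length was 0.68. The loci with a replicated peak were Cdh1, Cdh6, Cdh12, Cdh13, Cdh18, Cdh19, Cdh23, Cdh24, Pcdh7, Pcdh9, Pcdh15 and Pcdh19, together with Pcdhb15, Pcdhb16 and the gamma cluster. Replicate 2 itself had no peak within 2 kb of Cdh24 or Pcdhb16, and its peak at Cdh23 was not within 10 kb of a replicate 1 peak. At Cdh23 and Cdh24 the replicated peaks of replicate 1 lay outside the gene, within 2 kb of it. Pcdh7 and Pcdh9 had 4 replicated peaks of replicate 1 each, and Cdh13 had 7, all near a single intronic peak of replicate 2. By their midpoints, 2 of the 7 Cdh13 peaks lay in coding and 5 in UTR exons. The 6 tested non-clustered genes with a replicated peak had a median log2 difference of 1.24 at Zt +6 and a range from 0.77 to 2.19. The 14 without had a median of 1.11 and a range from 0.09 to 1.83, and the ranges overlap. Cdh18 and Pcdh15 of the former, and Cdh5, Pcdh11x and Pcdh20 of the latter, passed the filter only by being high in Snord116del at Zt +6. The other non-clustered loci with a replicated peak did not pass the filter.

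The 2 WT libraries differed in where their peaks lay. Each peak was placed by its midpoint. Of the 387 peaks of replicate 1 at the loci, 208 (53.7%) had it in an exon, while 1 of the 34 peaks of replicate 2 did so and 33 lay in introns. Over the 35 non-clustered loci, Spearman's rho between the number of exon peaks of replicate 1 and FPKM in WT at Zt +6 was 0.87. The strongest example was in the gamma cluster, on chromosome 18, where a replicate 1 peak with a fold over input of 410.4 by the authors' table covered the last constant exon, of 1971 bases (mm9 positions 37999557 to 38001527), which 9 of the 10 annotated transcripts of the cluster share. Replicate 2 had a single peak in that cluster, in an intron. Pcdh9 was the opposite case, with 79 peaks of replicate 1 of which 2 had their midpoint in an exon, and was picked out after its values were seen.

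Peaks of the 2 WT libraries shared bases at 9 places in 8 of the loci, all intronic: Cdh1, Cdh6, Cdh18, Cdh19, Pcdh7 (2 places), Pcdh9, Pcdh15 and Pcdh19. All 9 held an unbroken run of A or T, of 28 to 49 bases. This was no property of the members: of 1869 replicate 1 peaks that shared bases with replicate 2 anywhere in the genome, 85.7% held a run of at least 20 A or T.

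Such a run was held by 9.70% of all replicate 1 peaks, 32.6% of all replicate 2 peaks, 4.50% of WT NSC peaks, 0.236% of Snord116del 116HG peaks, 0.471% of Snord116del NSC peaks and 0.233% of consecutive 100-base windows of the reference. At the member loci it was held by 26 of 387 peaks of replicate 1 (6.72%), 13 of 34 of replicate 2 (38.2%) and none of the control peaks. It was held by 3 of the 26 replicate 1 peaks at the loci that lay within 10 kb of a replicate 2 peak without touching it.

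4 of the shared places are printed to show these runs beside the sequence around them. They are read from the mm9 reference (NCBIM37) on the strand of the gene, 5′ to 3′, and span the union of the 2 peaks, with the bases common to both peaks in capitals. They lie in introns of Pcdh7 at chr5:58264344-58264434 and chr5:58374269-58374412 (plus strand), of Cdh18 at chr15:22929604-22929722 (plus strand) and of Cdh19 at chr1:112818865-112818983 (minus strand).
Pcdh7, position 58264344: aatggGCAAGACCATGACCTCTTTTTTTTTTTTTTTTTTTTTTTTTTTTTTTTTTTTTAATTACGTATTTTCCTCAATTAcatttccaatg
Pcdh7, position 58374269: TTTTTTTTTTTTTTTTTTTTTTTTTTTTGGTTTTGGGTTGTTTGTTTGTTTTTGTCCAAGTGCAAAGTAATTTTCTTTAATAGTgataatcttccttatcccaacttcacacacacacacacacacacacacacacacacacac
Cdh18: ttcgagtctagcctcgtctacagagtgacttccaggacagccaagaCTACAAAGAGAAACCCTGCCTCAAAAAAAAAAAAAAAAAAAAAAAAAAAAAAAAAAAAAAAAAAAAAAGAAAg
Cdh19: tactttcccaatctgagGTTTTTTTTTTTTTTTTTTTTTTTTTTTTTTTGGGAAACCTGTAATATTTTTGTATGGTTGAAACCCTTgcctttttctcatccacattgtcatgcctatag

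In each of these places the run lies within the bases common to both peaks. The middle 32 bases of the part common to both peaks were searched in the reference. Those of the former Pcdh7 place occur 68123 times, those of the Cdh18 place 1474 times, those of the latter Pcdh7 place 2 times and those of the Cdh19 place 1 time. At all but the former Pcdh7 place these bases lie partly outside the run, so their counts are not those of the run alone. Reads that fall inside the repeated runs cannot be placed at a single locus. The authors' fold over input in replicate 1 was 115 and 71.05 for the 2 Pcdh7 places, 52.4 for Cdh18 and 61.9 for Cdh19, and the list of replicate 2 gives positions without a fold. The part of sequence composition in the sharing of peaks was not tested.

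**Figure D5:**
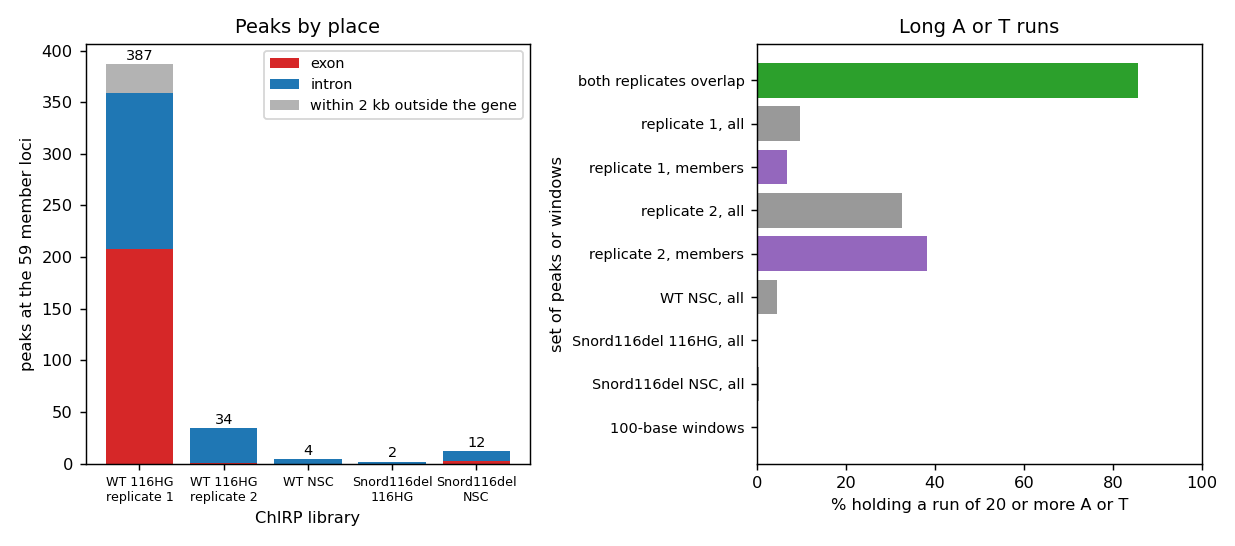
Left, number of ChIRP peaks within 2 kb of the 59 member loci in each library, divided by peak midpoint into exon, intron and flank. Right, percent of peaks holding a run of 20 or more A or T. Member loci are in purple, peaks shared between replicates in green, other whole lists in grey and 100-base windows of the reference at the bottom. Replicate 1 has 387 peaks with 208 in exons and replicate 2 has 34 with 1 in an exon, and 85.7% of the shared peaks hold such a run.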

How the data were processed

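The authors aligned RNA-seq reads to mm9 with TopHat2 2.0.5 and deposited 1 Cuffdiff 2.0.2 FPKM value per group and gene, with their own log2 fold changes, q-values and significance calls, which were not used. For ChIRP, the authors aligned reads with Bowtie2 2.0.0, called peaks in each library with MACS 1.4.2 against input and deposited a fold over input (a ratio) for 4 of the 5 lists. Read depth is not held in these files, and the mice of a group cannot be seen apart. The design foresaw group values, so a fold rule was used and no test: FPKM + 1 differing by 1.5-fold or more, 1 FPKM or more in the higher group and a mean of 1 FPKM or more.

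Lengths, exons and sequences came from GENCODE annotation and the NCBIM37 reference, the assembly of mm9; 21853 of 23235 genes matched by symbol. Transcript length was that of the longest annotated spliced transcript of a gene, and trends were lowess fits over tested genes with a fraction of 0.3. The table holds 0 columns of single mice. Genes were named by a fixed rule: every tested non-clustered member, C-type genes and the 3 highest of each cluster, members under the filter once, at most 3 partners per role and loci with a replicated peak. The members and lists were chosen with earlier results of these data known. The values of a further marker gene and the sequence of a further shared peak are not reported here. The fold rule and the length trend were tested on simulated data. Analyses ran in Python 3.11.15 with pandas 2.3.3, scipy 1.17.1 and statsmodels 0.14.6.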

Additional observations from a re-analysis of the deposited data

How the results depend on the processing

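Counts of members past the fold rule are given for the main setting and then for each alternative that moved them by over 1.5 times. Between genotypes at Zt +6, 19 non-clustered members, 19 clustered members and 29 partners became 8, 4 and 17 with a mean of at least 3 FPKM, 12, 4 and 17 with a fold of 2, 8, 2 and 9 with groups scaled to the same median and 10, 3 and 15 with quantile normalization. With the trend on transcript length removed, 7 non-clustered members and 5 partners were past it, and with the trend on gene length removed 6 and 5. Between genotypes at Zt +16, 1 non-clustered and 0 clustered members became 2 and 1 with a pseudocount of 0.1, and the non-clustered count was 0 with a fold of 2, each of the 3 scalings and either length trend removed. Between times in WT, 7 non-clustered and 3 clustered members became 12 and 8 with groups scaled to the same total and 4 and 0 with a fold of 2. The non-clustered count was 4 with a mean of at least 3 FPKM and 4 with the trend on gene length removed, and the clustered count was 6 with a pseudocount of 0.1. Between times in Snord116del, 17 and 19 became 7 and 3 with a mean of at least 3 FPKM. The clustered count there was 29 with no filter, 10 with a fold of 2, 11 with groups scaled to the same median and 4 with quantile normalization, and the non-clustered count was 9 with the trend on transcript length removed. Fewer genes could be tested under the higher mean, and the cause of the other moves was not tested. Loci with a replicated peak numbered 15, and 8 where peaks had to overlap, 9 within 2 kb and 8 with peaks of replicate 1 in the upper quartile of fold over input. Leaving out each WT library in turn gave 16 to 44 loci.

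At Zt +6 the sign turned for Pcdhga10 (-0.0656) and Pcdhgb1 (-0.0454) with quantile normalization. It turned for Cdh4 (-0.49), Pcdh11x (-0.19), Pcdh15 (-0.31), Pcdh19 (-0.55) and Pcdh20 (-0.0386) with the trend on transcript length removed, and for Cdh22 (-0.26), Cdh4 (-0.53), Pcdh11x (-0.12), Pcdh15 (-0.31) and Pcdh19 (-0.22) with that on gene length removed. Between times in Snord116del it turned for Pcdh11x (0.27), Pcdh15 (0.30) and Pcdh19 (0.49) with the trend on transcript length removed and for Pcdh11x (0.13) and Pcdh15 (0.31) with that on gene length removed. The gene length trend and the filter on WT at Zt +6 were chosen after seeing the data. Of the 22 tested clustered members, the 6 with a length had a median at Zt +6 of 0.21 with the trend on transcript length removed and 0.77 with that on gene length removed, against 0.84 for all 22 as deposited. No paired analysis was possible because the table holds group values without the mice that the replicate numbers name.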
